A study of Homo sapiens with 4 samples.

Results

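Genes that move zinc, iron, copper, magnesium and manganese across membranes, or store these metals, were followed after FOXC1, a forkhead transcription factor, was introduced into the mesenchymal-like human breast cancer line MDA-MB-231. The genes were taken by symbol: the SLC30A, SLC39A, SLC11A, SLC40A, SLC41A and SLC31A carrier families, the transferrin receptor TFRC, the ferritins FTL and FTMT, and the metallothioneins MT1E, MT1F, MT1G, MT1H, MT1M, MT1X and MT2A. This gave 42 genes of 18417 with a probe set annotated to 1 symbol (46 probe sets of 33297 on the array), and the brightest probe set stands for each gene. MT2A and SLC39A7 had several. FOXC1 cells carried a FOXC1 plasmid (2 arrays) and vector cells the vector (2 arrays). Both groups share the line, a serum content of 10% and a lipid transfection reagent, and the labels call the arrays of a group biological replicates. Time after transfection, cell age and whether pools or clones were used are not stated in the labels.

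Cellular iron arrives bound to transferrin through TFRC or as free ion through the divalent metal carrier SLC11A2 (DMT1), is stored in ferritin, and leaves through ferroportin, SLC40A1. Zinc is moved out of the cytosol by ZnT carriers (SLC30A), either across the cell surface or into vesicles and organelles, and into the cytosol by ZIP carriers (SLC39A). Metallothioneins are small cysteine-rich proteins that bind zinc and copper, and their genes are switched on by the zinc-sensing factor MTF1 at short metal response elements. In breast tissue zinc transport is best known for the secretion of zinc into milk and for SLC39A6 (LIV-1), an oestrogen-responsive carrier.

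The metallothionein promoters are printed because these genes carry the densest metal response elements of the set, and ferroportin and the zinc exporter SLC30A1 (ZnT1) because the first had the largest change and the second is a known MTF1 target. Each line holds the 250 bases before the gene's start, 5′ to 3′ on the gene's strand, from RefSeq (GRCh38.p14). Capitals mark the element's core, TGCACNC or TGCGCNC, on either strand.
MT2A (chr16:56608334-56608583, + strand): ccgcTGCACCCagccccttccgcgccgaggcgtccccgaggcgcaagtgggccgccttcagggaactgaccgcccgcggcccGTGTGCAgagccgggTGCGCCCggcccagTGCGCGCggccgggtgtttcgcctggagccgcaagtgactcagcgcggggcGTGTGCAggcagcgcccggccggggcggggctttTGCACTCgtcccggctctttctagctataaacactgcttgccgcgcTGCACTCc
MT1H (chr16:56669564-56669813, + strand): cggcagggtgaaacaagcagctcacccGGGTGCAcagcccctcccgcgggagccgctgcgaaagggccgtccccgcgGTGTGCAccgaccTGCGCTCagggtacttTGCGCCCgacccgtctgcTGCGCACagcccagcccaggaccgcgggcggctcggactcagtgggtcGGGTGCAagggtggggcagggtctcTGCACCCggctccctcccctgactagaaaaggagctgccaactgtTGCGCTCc
MT1X (chr16:56682220-56682469, + strand): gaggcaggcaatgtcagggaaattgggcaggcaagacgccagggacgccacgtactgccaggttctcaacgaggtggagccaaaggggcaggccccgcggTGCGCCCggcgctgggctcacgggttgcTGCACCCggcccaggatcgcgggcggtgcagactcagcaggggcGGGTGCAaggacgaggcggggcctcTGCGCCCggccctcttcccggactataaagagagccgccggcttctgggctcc
SLC30A1 (chr1:211579162-211579411, - strand): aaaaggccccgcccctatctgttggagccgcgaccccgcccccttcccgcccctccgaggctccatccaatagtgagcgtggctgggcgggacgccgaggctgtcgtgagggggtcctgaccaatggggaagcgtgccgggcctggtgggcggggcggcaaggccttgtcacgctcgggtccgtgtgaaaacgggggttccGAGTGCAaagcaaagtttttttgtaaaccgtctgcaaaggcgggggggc
SLC40A1 (chr2:189580787-189581036, - strand): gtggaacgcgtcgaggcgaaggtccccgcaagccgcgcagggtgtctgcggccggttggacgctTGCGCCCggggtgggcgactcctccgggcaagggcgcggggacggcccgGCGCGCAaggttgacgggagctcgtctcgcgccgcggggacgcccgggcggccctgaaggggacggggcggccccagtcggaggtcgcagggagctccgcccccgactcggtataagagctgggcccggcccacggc

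The core stood 7 times before MT2A, 8 times before MT1H and 4 times before MT1X, without overlap. It stood 2 times before SLC40A1 and 1 time before SLC30A1. Among all 35116 RefSeq windows, 24.8% held at least 1 core, 6.48% at least 2 and 0.370% at least 4. The table held 34 of the 42 genes, 11 of them with more than 1 window, and not MT1E, MT1F, MT1G, MT1M, SLC30A8, SLC31A2, SLC39A4 and SLC39A14. Outside the metallothioneins 13 of 31 genes had a core in some window, with at most 3 in 1 window (SLC30A2 and TFRC, whose 3 include an overlapping pair). This count is per gene over all its windows, so it cannot be set against the share of single windows above. The forkhead letters GTAAACA or GTAAATA, chosen after the array values were seen and read on both strands, stood before SLC30A9 and in 1 of 2 windows before SLC41A2, and in 5.27% of all windows. These matches describe letters and not bound sites.

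The arrays gave linear PLIER signals, a summary of the probes of each probe set. Medians over all probe sets were 499 and 512 on the FOXC1 arrays and 492 and 489 on the vector arrays. Over the named probe sets the order turned, with 776 and 769 on the FOXC1 arrays and 788 and 783 on the vector arrays. The labelled cell type was checked against markers. All 7 markers of mesenchymal-like breast cancer epithelium, such as VIM, CD44 and KRT18 (2 higher and 5 lower in FOXC1 cells), lay above a signal of 277, the 25th percentile of named probe sets, and of 4 genes listed as low in this line the oestrogen and progesterone receptor genes ESR1 and PGR lay below it. The other 2 did not: CDH1 (E-cadherin) had mean signals of 280 in FOXC1 cells and 274 in vector cells, at the limit, and ERBB2 had 1171 in FOXC1 cells and 1285 in vector cells. Of the measured markers of other cell types, 3 of 5 fibroblast, 1 of 4 endothelial, 2 of 4 leukocyte, 2 of 3 erythroid and 1 of 4 hepatocyte genes lay below that limit. Most named probe sets lie above such a limit by its definition, so lying above it does not identify a cell type. Among all genes the 7 markers ranked between the 88.4th (KRT19) and 99.8th (VIM) percentile of signal. The highest marker of another cell type, CDH5 (endothelial), ranked at the 59.5th. Among the markers of other cell types DCN had mean signals of 147 in FOXC1 cells and 89.4 in vector cells, and PTPRC 93.7 and 63.1. Both were called higher, and both lay below the limit in both groups. PECAM1 was lower, with 247 in FOXC1 cells and 816 in vector cells, and was the only endothelial gene called. The part of DCN, PTPRC and PECAM1 in the results below was not tested. The summed marker signal was between 1432 and 1507 on FOXC1 arrays and between 1427 and 1458 on vector arrays for fibroblast genes, and between 1918 and 1931 on FOXC1 arrays and between 2347 and 2643 on vector arrays for endothelial genes. It was between 1113 and 1131 on FOXC1 arrays and between 991 and 1138 on vector arrays for leukocyte genes, between 762 and 818 on FOXC1 arrays and between 734 and 746 on vector arrays for erythroid genes, and between 1500 and 1552 on FOXC1 arrays and between 1425 and 1442 on vector arrays for hepatocyte genes. The FOXC1 transcript was not analysed here. In bulk RNA, fewer cells with a transcript and less transcript per cell cannot be told apart.

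The comparison asked which metal-handling genes differ between FOXC1 and vector cells. Of the 42 genes 15 changed, all but SLC40A1, SLC30A4 and FTMT by at most 1.19-fold. Ferroportin (SLC40A1), the iron exporter, fell 1.70-fold, while the transferrin receptor TFRC rose 1.18-fold and the ferritin light chain FTL rose 1.08-fold. Of the zinc carriers SLC30A4 (ZnT4) fell 1.38-fold and SLC39A3 (ZIP3) rose 1.19-fold, the magnesium carrier SLC41A1 rose 1.19-fold, and of 7 metallothioneins MT1X alone passed the test. A gene is called changed when its limma p, adjusted by Benjamini-Hochberg over all 21214 named probe sets, is below 0.05. Folds and log2 values are differences of log2(signal + 16), FOXC1 minus vector. The p-values combine a gene's own spread between arrays (2 residual degrees of freedom) with a variance trend over all named probe sets (18.1 prior). Without that trend 11 of the 15 calls were lost.

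By this rule 9 of the 42 genes (21.4%) were higher and 6 (14.3%) lower in FOXC1 cells. Of all 18417 genes 15.9% were higher and 15.5% lower, so that the set's shares lay near the background. The FOXC1 and vector arrays did not overlap for 28 of the 42 genes (66.7%), against 63.5% of all genes. Only ferroportin, 1 of 42, was both called and changed by at least 1.5-fold, against 3.02% of all genes. The median log2 difference was 0.02 in the set and 0.03 over all genes, and the median absolute difference 0.08 in the set and 0.11 over all genes. Without vector replicate 2, 4 genes of the set were higher and 4 lower, and 10.4% of all genes were higher and 12% lower. With arrays centred on the median of all probe sets, an alternative chosen after seeing the data, 5 genes of the set were higher and 7 lower. Of all genes 9.44% were then higher and 18.4% lower. The planned centring on named probe sets moved the balance the other way. It gave 10 genes of the set higher and 5 lower, and 20.4% of all genes higher and 13.8% lower. Without a variance trend 2 were higher (TFRC and SLC41A1) and 2 lower (SLC40A1 and SLC30A4), against 7.93% and 9.72% of all genes.

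**Figure D1:**
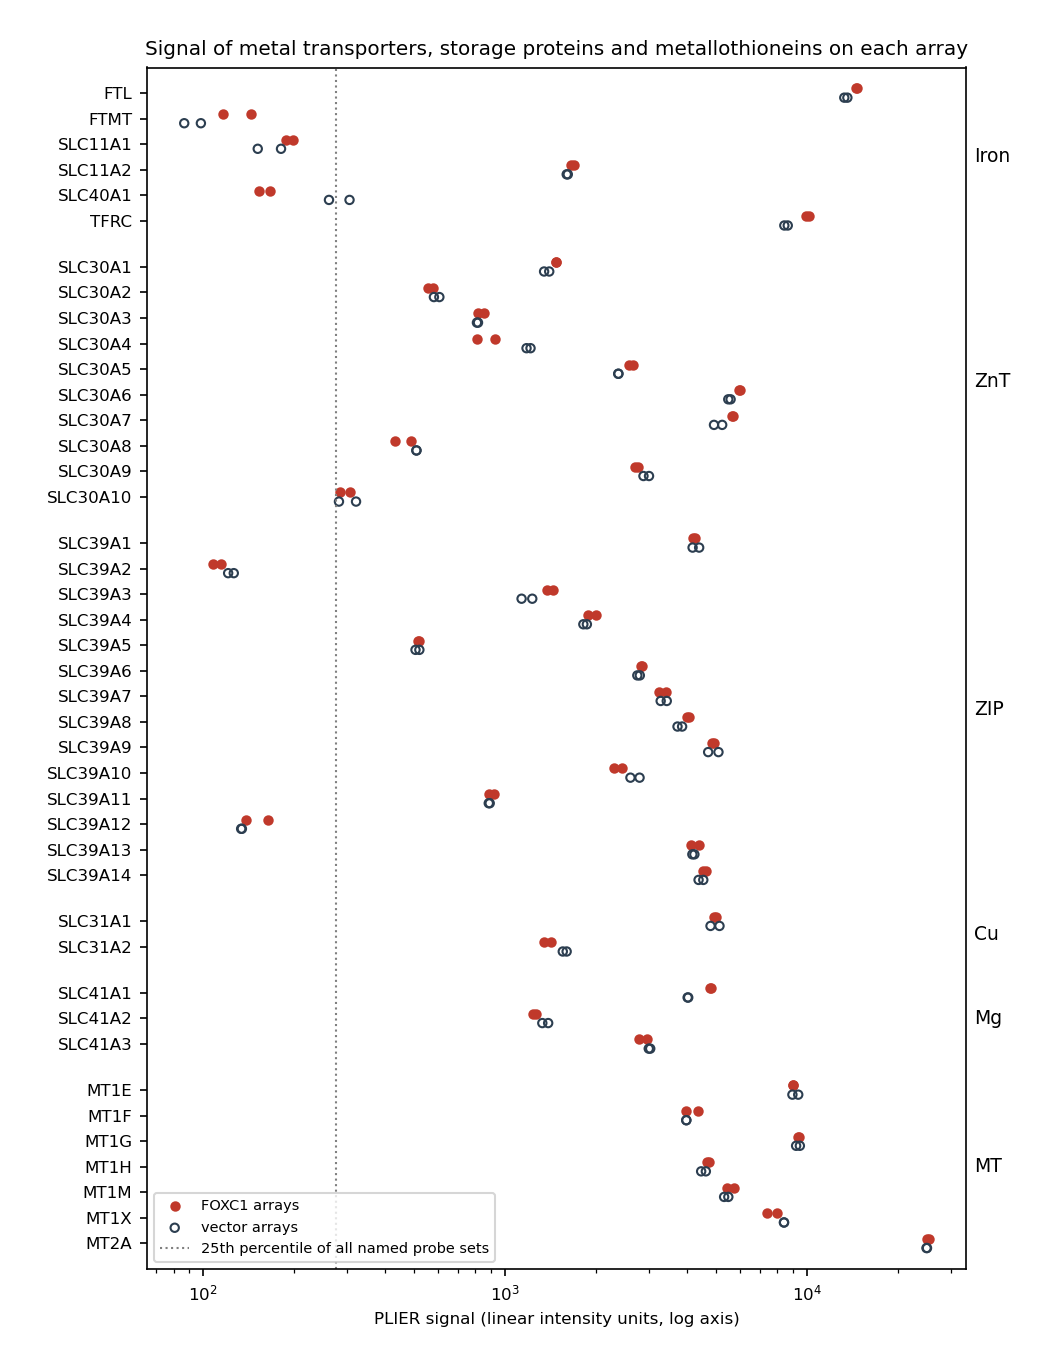
PLIER signal (linear intensity units on a log axis) of the 42 genes on each array, with filled points for the 2 FOXC1 arrays and open points for the 2 vector arrays, grouped by metal (MT, metallothioneins). The dotted line is the 25th percentile of named probe sets (277), and SLC40A1 shows the widest gap between groups.

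The widest difference of the set was that of ferroportin, while the other iron genes differed less than the zinc exporter SLC30A4. Ferroportin had signals of 153 and 167 in FOXC1 cells, against 262 and 306 in vector cells. Both FOXC1 arrays were lower, with log2 -0.76 ± 0.10 SE and a limma adjusted p of 6.12e-06. The probe set is dim, with the vector arrays near the limit of 277 and the FOXC1 arrays below it. The log2 difference was -0.63 with an offset of 64 in place of 16. It lay between -0.87 and -0.66 when each array was left out in turn. The call held in each of the 16 alternatives that could be run. Those not run kept only probe sets at or above the 25th or 50th percentile of signal, which this probe set did not reach.

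TFRC, which brings in transferrin-bound iron, had signals of 9926 and 10162 in FOXC1 cells, against 8656 and 8432 in vector cells. The groups did not overlap, and the rise was narrow in its error, with log2 0.23 ± 0.02 SE and a limma adjusted p of 2.2e-07. FTL, a subunit of the ferritin shell that stores iron, had signals of 14668 and 14578 in FOXC1 cells, against 13321 and 13637 in vector cells. It was higher on both FOXC1 arrays by log2 0.12 ± 0.02 SE (limma adjusted p = 0.000159). Its call was lost with centring on all probe sets (limma adjusted p = 0.0511) and without a variance trend (0.123).

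FTMT, the ferritin of mitochondria, was dim, with signals of 117 and 144 in FOXC1 cells, against 98.5 and 86.8 in vector cells. It was called higher at log2 0.43 ± 0.13 SE (limma adjusted p = 0.0129). The call was lost without FOXC1 replicate 2 (log2 0.29, limma adjusted p = 0.181), without vector replicate 2 (log2 0.35, 0.0968), without a variance trend (0.0639) and in a fit over all probe sets (0.081). SLC11A2, the carrier of divalent iron, had signals of 1698 and 1662 in FOXC1 cells, against 1604 and 1617 in vector cells, and did not pass (95% interval of the log2 difference -0.04 to 0.16). SLC11A1, best known in phagocytes, was below the limit of 277 in both groups (188 and 200 in FOXC1 cells, against 182 and 152 in vector cells) and did not pass (interval -0.02 to 0.43). Of the 6 iron genes 3 were higher, the dim FTMT among them, and 1 was lower. Of all genes 15.9% were higher and 15.5% lower, and a difference from these shares was not tested.

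**Figure D2:**
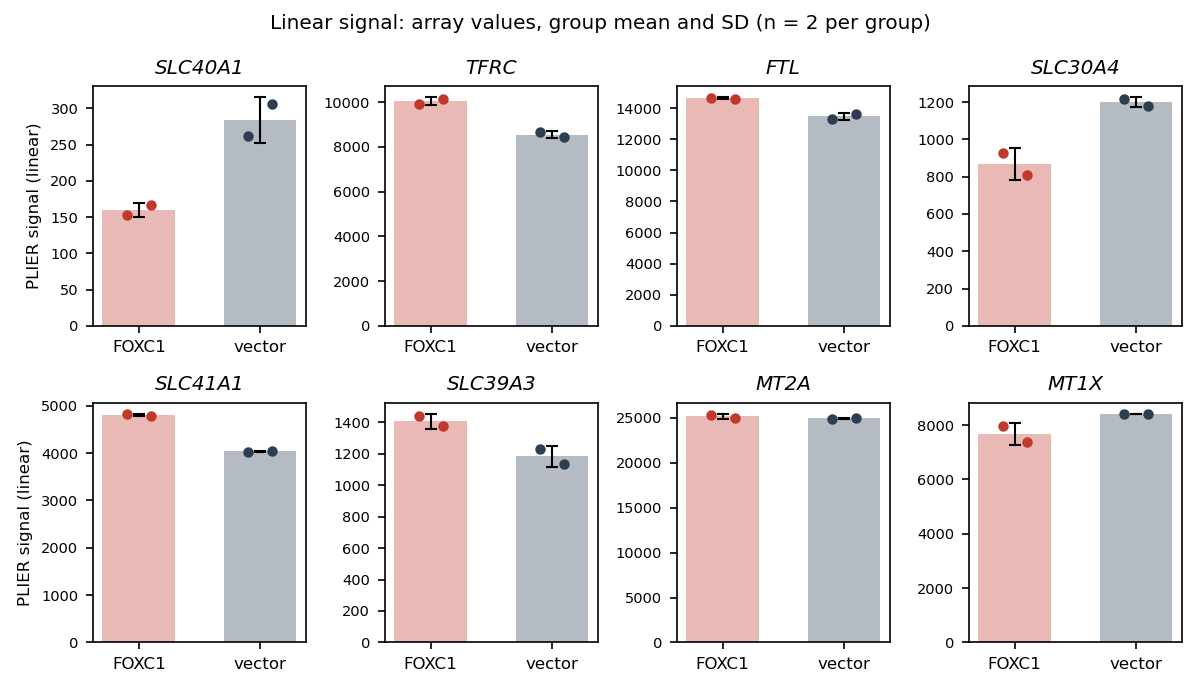
Linear PLIER signal of 8 genes, with points for the arrays, bars for the group mean and whiskers for the SD (n = 2 per group), each panel starting at 0. The FOXC1 and vector arrays separate for SLC40A1, TFRC, FTL, SLC30A4, SLC41A1, SLC39A3 and MT1X and overlap for MT2A.

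Of the 10 ZnT zinc exporters 3 were higher (30%) and 2 lower (20%), against 15.9% and 15.5% of all genes. The largest change was in SLC30A4, a vesicular carrier known from the mouse lethal milk mutation, with signals of 929 and 809 in FOXC1 cells, against 1217 and 1181 in vector cells. Both FOXC1 arrays were lower, by log2 -0.46 ± 0.06 SE (limma adjusted p = 7.34e-06), and the call held in all alternatives but the 1.5-fold limit.

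The 3 that rose were SLC30A5, SLC30A6 and SLC30A7, the ZnT carriers of the early secretory pathway that supply zinc to enzymes such as alkaline phosphatases, with ZnT5 and ZnT6 acting as a pair. SLC30A5 had signals of 2663 and 2571 in FOXC1 cells, against 2375 and 2381 in vector cells (log2 0.14 ± 0.04 SE, limma adjusted p = 0.0108). SLC30A6 had signals of 5985 and 6017 in FOXC1 cells, against 5597 and 5499 in vector cells (log2 0.11 ± 0.03 SE, limma adjusted p = 0.00404). SLC30A7 had signals of 5652 and 5693 in FOXC1 cells, against 5249 and 4932 in vector cells (log2 0.16 ± 0.03 SE, limma adjusted p = 0.000666). None of these 3 overlapped between groups, which was also so for 63.5% of all genes. The folds were 1.10, 1.08 and 1.11. All 3 calls were lost without a variance trend (limma adjusted p = 0.0974, 0.129 and 0.0996). Those of SLC30A5 and SLC30A6 were also lost with centring on all probe sets (0.191 and 0.212) and without vector replicate 2 (0.0848 at log2 0.14 and 0.0687 at log2 0.10), and that of SLC30A5 without vector replicate 1 (0.093 at log2 0.14).

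SLC30A9, a zinc carrier of mitochondria, was called lower by a small margin, with signals of 2760 and 2702 in FOXC1 cells, against 3005 and 2880 in vector cells (log2 -0.11 ± 0.04 SE, limma adjusted p = 0.0396). The call was lost without FOXC1 replicate 2 (log2 -0.09), vector replicate 1 (log2 -0.08) or vector replicate 2 (log2 -0.14), with median centring on named probe sets (limma adjusted p = 0.0699), without a variance trend (0.176) and in a fit over all probe sets (0.107). SLC30A1, the exporter of the cell surface and an MTF1 target, had signals of 1481 and 1480 in FOXC1 cells, against 1404 and 1350 in vector cells. The groups did not overlap, but the gene did not pass (log2 0.10 ± 0.05 SE, limma adjusted p = 0.12), and it passed with quantile normalization (0.0254) and with median centring on named probe sets (0.0338). The other 4, the milk zinc carrier SLC30A2, the synaptic vesicle carrier SLC30A3, the islet carrier SLC30A8 and the manganese exporter SLC30A10, did not pass, with log2 differences between -0.14 and 0.04. Of these SLC30A8 passed, lower, without FOXC1 replicate 2 (log2 -0.23, limma adjusted p = 0.0396).

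Of the 14 ZIP zinc importers 2 were higher (14.3%), 1 was lower (7.14%) and 11 did not pass. Of all genes 15.9% were higher and 15.5% lower. SLC39A3, a zinc importer of the cell surface, had signals of 1441 and 1375 in FOXC1 cells, against 1233 and 1137 in vector cells. Both FOXC1 arrays were higher, by log2 0.25 ± 0.05 SE (limma adjusted p = 0.00132). SLC39A8, which carries zinc, manganese and iron, had signals of 4025 and 4071 in FOXC1 cells, against 3867 and 3734 in vector cells, a rise near the threshold (log2 0.09 ± 0.03 SE, limma adjusted p = 0.0451). SLC39A10, which forms a complex with SLC39A6 at the cell surface, had signals of 2306 and 2443 in FOXC1 cells, against 2796 and 2608 in vector cells, and fell (log2 -0.18 ± 0.04 SE, limma adjusted p = 0.00235). All 3 calls were lost without a variance trend (limma adjusted p = 0.0542, 0.214 and 0.0983). That of SLC39A3 was lost without vector replicate 2 (log2 0.19) and that of SLC39A10 without vector replicate 1 (log2 -0.13). That of SLC39A8 was lost without FOXC1 replicate 2 (log2 0.08), vector replicate 1 (log2 0.12) or vector replicate 2 (log2 0.07), with centring on all probe sets (limma adjusted p = 0.498) and in a fit over all probe sets (0.12).

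The partner SLC39A6 had signals of 2829 and 2843 in FOXC1 cells, against 2748 and 2801 in vector cells, and did not pass (95% interval of log2 -0.05 to 0.11). SLC39A14, a carrier of zinc, manganese and non-transferrin-bound iron, had signals of 4630 and 4549 in FOXC1 cells, against 4545 and 4384 in vector cells, and did not pass (interval -0.03 to 0.11). The other 9 included the intestinal importer SLC39A4, the endoplasmic reticulum carrier SLC39A7 and SLC39A13, whose loss impairs connective tissue, together with SLC39A1, SLC39A2, SLC39A5, SLC39A9, SLC39A11 and SLC39A12. None of these 9 passed, and their log2 differences lay between -0.14 (SLC39A2) and 0.15 (SLC39A12), both of which were below the limit of 277. Unadjusted, 0 of the 11 had a limma p under 0.05, and of the 27 uncalled genes of the whole set 2 did (SLC30A1 and SLC41A2). The 3 probe sets of SLC39A7 had the same signals on every array and count as 1 measurement. Over the 24 zinc carriers together 5 were higher (20.8%), 3 lower (12.5%) and 16 not called, with a median log2 difference of 0.02.

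**Figure D3:**
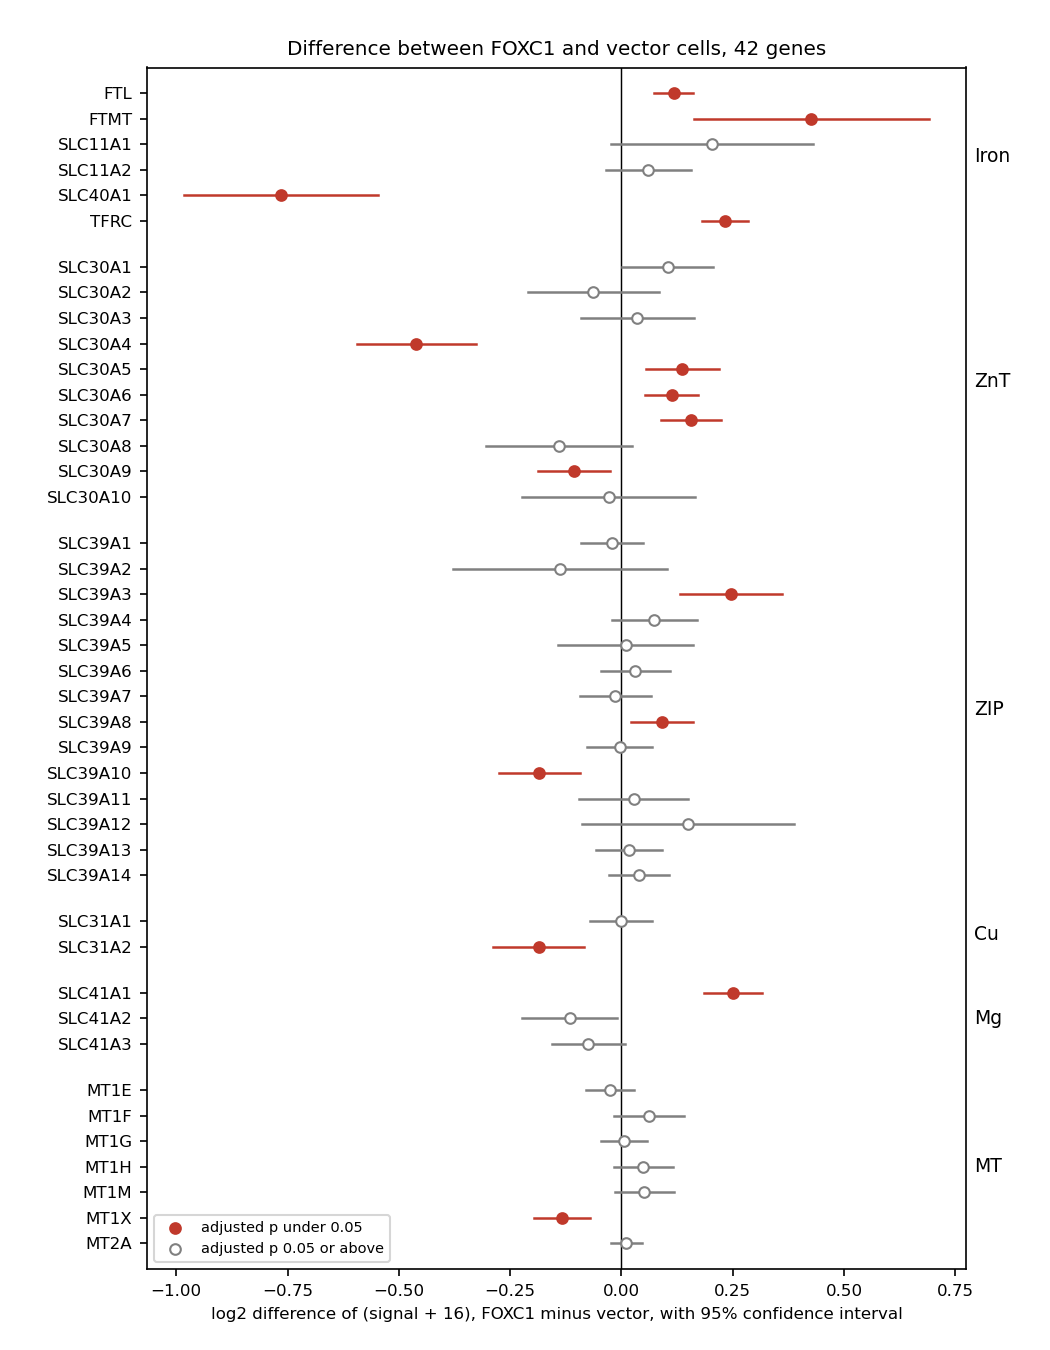
Difference of log2(signal + 16), FOXC1 minus vector, with its 95% interval from limma, for the 42 genes grouped by metal (MT, metallothioneins). Filled points passed an adjusted p of 0.05, and the points farthest from 0 are SLC40A1 (-0.76), SLC30A4 (-0.46) and FTMT (0.43).

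Of 2 copper carriers 1 was lower (50%), and of 3 magnesium carriers 1 was higher (33.3%). Of all genes 15.9% were higher and 15.5% lower. SLC31A1 (CTR1), the copper importer of the cell surface, had signals of 4940 and 4990 in FOXC1 cells, against 5143 and 4802 in vector cells, and did not pass (interval -0.07 to 0.07). SLC31A2 (CTR2), a related protein of endosomes and lysosomes, had signals of 1423 and 1351 in FOXC1 cells, against 1557 and 1603 in vector cells. It was lower on both FOXC1 arrays, by log2 -0.19 ± 0.05 SE (limma adjusted p = 0.00608), a call lost without vector replicate 2 (log2 -0.17, 0.109) and without a variance trend (0.0649).

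SLC41A1, a sodium-dependent magnesium exporter, had signals of 4824 and 4796 in FOXC1 cells, against 4033 and 4052 in vector cells. The gap between groups was far wider than the spread within them (log2 0.25 ± 0.03 SE, limma adjusted p = 1.87e-06), and the call held in all alternatives but the 1.5-fold limit. Its relatives SLC41A2 and SLC41A3, the second a magnesium carrier of mitochondria, did not pass, at log2 -0.12 ± 0.05 SE and -0.07 ± 0.04 SE. SLC41A2 passed, lower, with centring on all probe sets (limma adjusted p = 0.0477) and at a threshold of 0.10 (0.0954), and SLC41A3 passed, lower, without FOXC1 replicate 1 (log2 -0.12, 0.0241).

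The metallothioneins of the set gave strong and nearly equal signals in both groups. MT2A, the main metallothionein of many human cells, had signals of 25372 and 24988 in FOXC1 cells, against 24935 and 25031 in vector cells, and did not pass (95% interval of log2 -0.02 to 0.05). Its other 2 probe sets gave log2 differences of 0.01 and 0.04 and did not pass. MT1X had signals of 7957 and 7385 in FOXC1 cells, against 8414 and 8409 in vector cells. Of the 7 metallothioneins of the set MT1X alone was called (14.3% lower, against 15.5% of all genes). It was lower by log2 -0.13 ± 0.03 SE (limma adjusted p = 0.00155). Its call was lost without a variance trend (0.155) and in a fit over all probe sets (0.0523). MT4, a metallothionein of the related lists below, was called higher (log2 0.20).

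The other metallothioneins of the set lay close to 0. MT1E had signals of 9018 and 8993 in FOXC1 cells, against 9376 and 8968 in vector cells. MT1G had signals of 9362 and 9430 in FOXC1 cells, against 9226 and 9492 in vector cells. The vector arrays enclosed both FOXC1 arrays for each of these genes. MT1F had signals of 3987 and 4359 in FOXC1 cells, against 3992 and 3993 in vector cells. MT1M had signals of 5466 and 5759 in FOXC1 cells, against 5501 and 5328 in vector cells. MT1H had signals of 4663 and 4762 in FOXC1 cells, against 4635 and 4472 in vector cells. Only MT1H separated the groups, by a gap smaller than the spread of its vector arrays. The 95% intervals of the 5 genes lay between -0.08 (MT1E) and 0.14 (MT1F). MT1F and MT1M passed, higher, without FOXC1 replicate 1 (log2 0.13 and 0.09, limma adjusted p = 0.0075 and 0.0438).

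Metallothionein transcripts are alike in sequence, so a probe set may bind several of them, and the array gave signal for pseudogenes and relatives as well. Probe sets of MT1B, MT1DP, MT1HL1, MT1IP, MT1JP, MT1P3 and of MT1L (shared with NUTF2), listed after their values were seen, had mean signals between 2409 and 8117 in FOXC1 cells, against 2310 and 8139 in vector cells. None of these 7 passed, with limma adjusted p between 0.0743 and 0.926 and log2 differences between -0.06 and 0.08, and 1 (MT1HL1, higher) had an unadjusted p under 0.05. The highest signals of any probe set were 31092 and 31395 on the FOXC1 arrays, against 32376 and 32335 on the vector arrays. Whether signals as strong as that of MT2A still scale with RNA was not tested.

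Genes next to the changed members were read as a description. Among the 5 measured genes on each side of SLC40A1 the median log2 difference was 0.06, with 2 higher and 1 lower, and among those of SLC30A4 it was 0.03, with 1 higher and 2 lower (SQOR at -0.42 and SEMA6D at -0.44). Around TFRC it was 0.05, with 0 higher and 1 lower. Around the metallothionein cluster it was -0.06, with 1 higher and 4 lower, BBS2 on one flank being the lowest at -0.53. Of all genes 15.9% were higher and 15.5% lower, and a difference from these shares was not tested. Over all 13 places read (the 12 called members with the largest change and the cluster) the medians lay between -0.06 and 0.12.

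Other genes of metal handling were counted from 5 lists of 76 genes, of which 68 had a probe set of their own. Of these 10 were higher (14.7%) and 15 lower (22.1%) in FOXC1 cells, against 15.9% and 15.5% of all genes, with a median log2 difference of 0.01. The other 8 were not analysed here, FTH1 and IREB2 among them. Genes named below beyond the largest 3 of a list and ACO1, MTF1 and HMOX1 were chosen after their values were seen.

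The largest change was in NEO1 (neogenin), a guidance receptor that also binds hemojuvelin in the control of hepcidin, with signals of 129 and 140 in FOXC1 cells, against 487 and 481 in vector cells. It fell 3.33-fold (log2 -1.73 ± 0.09 SE, limma adjusted p = 4.34e-12). BMP6, a ligand of the same hepcidin control in liver, had signals of 1138 and 1177 in FOXC1 cells, against 689 and 790 in vector cells, and rose 1.56-fold. Both FOXC1 signals of NEO1 were below the limit of 277, and its fold is of signals with 16 added. Of 23 iron uptake, storage and regulation genes these were joined by ACO1, iron regulatory protein 1, higher by log2 0.12. The metal reductases STEAP2 (log2 -0.45) and CYBRD1 (-0.33), the iron sensor gene HFE (-0.31) and NCOA4 (-0.11), which takes ferritin to lysosomes, fell. In this list 2 genes were higher (8.70%) and 5 lower (21.7%), against 15.9% and 15.5% of all genes. Hepcidin itself, HAMP, had signals of 406 and 450 in FOXC1 cells, against 418 and 397 in vector cells, and did not pass.

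Of 15 mitochondrial iron and heme genes 3 were higher (20%) and 5 lower (33.3%), against 15.9% and 15.5% of all genes. FLVCR2, a carrier first linked to heme, fell 1.52-fold, with signals of 260 and 243 in FOXC1 cells, against 398 and 385 in vector cells, the FOXC1 arrays again below that limit. SLC46A1, a folate carrier that was also described as a heme carrier, rose (log2 0.26), as did the mitochondrial iron carrier SLC25A28 (0.20) and FLVCR1 (0.20). Coproporphyrinogen oxidase CPOX (-0.22), the lysosomal heme carrier SLC48A1 (-0.21), the heme oxygenase HMOX2 (-0.18) and the second mitochondrial iron carrier SLC25A37 (-0.10) fell. The inducible heme oxygenase HMOX1 did not pass (log2 0.07 ± 0.05 SE).

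Of 10 copper genes 3 fell (30%) and 0 rose, against 15.5% lower and 15.9% higher of all genes. The median log2 difference of the list was -0.02. Those that fell were the copper pumps ATP7B (log2 -0.38 ± 0.10 SE) and ATP7A (-0.34 ± 0.06 SE), and ATOX1 (-0.19 ± 0.04 SE), the chaperone that hands copper to both. ATP7A had signals of 696 and 685 in FOXC1 cells, against 898 and 861 in vector cells, while ATP7B was below the limit of 277 in both group means. Of the copper genes, 0 were higher at an unadjusted limma p under 0.05. Of 4 zinc genes MTF1, the activator of metallothionein genes, rose, with signals of 2929 and 2966 in FOXC1 cells, against 2618 and 2636 in vector cells (log2 0.17 ± 0.04 SE, limma adjusted p = 0.00156). MT4 also rose (log2 0.20) and the vesicular zinc carrier TMEM163 fell (-0.41), while MT1B did not pass. In this short list 50% were higher and 25% lower, against 15.9% and 15.5% of all genes. Of 16 magnesium and manganese genes NIPA1 (0.24), TUSC3 (0.19) and NIPA2 (0.15), linked to magnesium transport, were higher. The lysosomal pump ATP13A2 was lower (-0.24). These were 18.75% higher and 6.25% lower, against 15.9% and 15.5% of all genes.

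**Figure D4:**
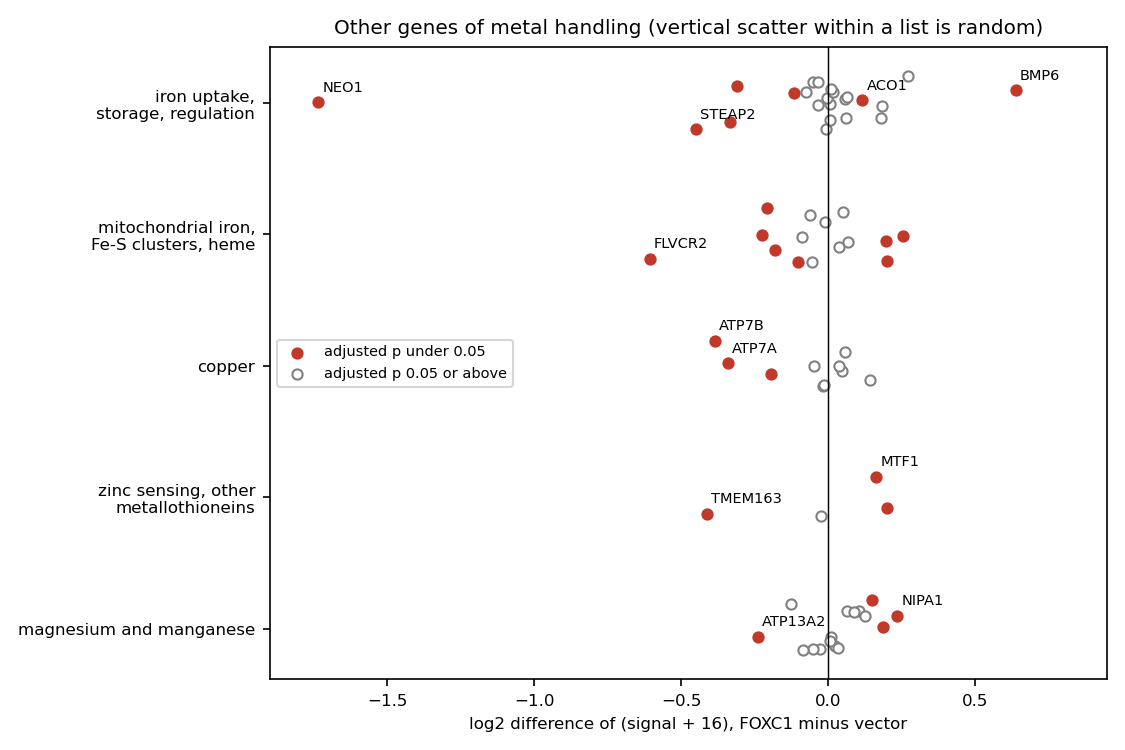
Difference of log2(signal + 16), FOXC1 minus vector, for 68 other metal-handling genes in 5 lists, with filled points for an adjusted p below 0.05 and open points for the rest. NEO1 (-1.73) and BMP6 (0.64) lie farthest from 0, and the 3 called genes of the 10 on the copper list are lower.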

How the data were processed

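RNA (100 ng per sample) of 2 FOXC1 and 2 vector samples was measured on Affymetrix whole-transcript arrays. The deposited files hold linear intensity per probe set. Per the labels, the authors summarised probe sets at gene level with PLIER in Affymetrix Expression Console, and no label states the background correction, normalization or versions. Signals were taken unchanged, and 16 was added before log2. No annotated build is stated, so coordinates are given for RefSeq promoter windows alone.

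All 21214 probe sets with a gene symbol entered 1 two-sided test by limma 3.58.1 (R 4.3.3; lmFit and eBayes with a trend), with 2 residual and 18.1 prior degrees of freedom and Benjamini-Hochberg adjustment. Counts use 1 probe set per gene, the brightest of those with 1 symbol. Arrays carry no read depth, and their number limits the precision.

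By rule, array values are given for the 12 called members with the largest change, the metallothioneins, SLC11A2, SLC30A1, SLC39A6, SLC39A8 and SLC39A14, and the 3 largest called genes of each related list are named, with ACO1, MTF1 and HMOX1. Array values of SLC11A1, SLC30A6, SLC30A9 and SLC31A1, and other related genes such as HAMP, were added after their values were seen. Members and lists were chosen with earlier results of these data known. Same-numbered replicates did not deviate together between groups (correlation -0.01 across probe sets).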

Additional observations from a re-analysis of the deposited data

How the results depend on the processing

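Of 742 values of members over 18 alternatives, 17 of them planned, 658 kept both direction and side of the threshold, 48 lost and 8 gained a call. Another 28, of 15 members that were not called, changed sign, and none of the 15 called members did. SLC40A1 alone kept its call in every alternative run for it. These were 16 of the 18, since it was too dim for both percentile limits of signal. TFRC, SLC30A4 and SLC41A1, run in all 18, lost theirs under the 1.5-fold limit alone. With calls limited to at least 1.5-fold, 0 members were higher and 1 lower, and 1 related gene was higher and 2 lower. Of all genes 0.88% were then higher and 2.14% lower. Without a variance trend 2 members were higher and 2 lower, and 3 related genes were higher and 9 lower. The shares of all genes were then 7.93% higher and 9.72% lower. Above the 50th percentile of signal 9 of the 43 related genes measured were lower, and 24.9% of all genes. With centring on all probe sets, chosen after seeing the data, 5 members were higher, and with the planned centring on named probe sets 10. Leaving out each array in turn gave between 4 (without vector replicate 2) and 11 members higher and between 4 and 7 lower, and between 8 and 12 related genes higher and between 10 and 17 lower. Over all genes the same fits gave between 10.4% and 16% higher and between 11.2% and 17.1% lower.

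With the replicate number as a block 9 members were higher and 6 lower, and 12 related genes were higher and 15 lower. Of all genes 18.1% were then higher and 16.8% lower. The block changed no call of a member.

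Signs that turned, all of uncalled members, were as follows. Median centring gave log2 0.0023 for SLC39A1, 0.0099 for SLC39A7, 0.020 for SLC39A9 and 0.022 for SLC31A1. Centring on all probe sets gave -0.0057 for SLC30A3, -0.032 for SLC39A5, -0.010 for SLC39A6, -0.014 for SLC39A11, -0.024 for SLC39A13, -0.0018 for SLC39A14, -0.036 for MT1G and -0.030 for MT2A. Quantile normalization gave -0.0079 for SLC39A5 and -0.033 for MT1G. Leaving out arrays gave -0.12 to 0.060 for SLC30A10, -0.057 to 0.015 for SLC39A1, -0.011 to 0.030 for SLC39A5, -0.056 to 0.029 for SLC39A7, -0.060 to 0.053 for SLC39A9, -0.031 to 0.066 for SLC39A13, -0.051 to 0.048 for SLC31A1, -0.058 to 0.0060 for MT1E, -0.0022 to 0.13 for MT1F and -0.015 to 0.026 for MT1G. The cause of these shifts was not tested. Dim probe sets (SLC40A1, FTMT, SLC11A1, SLC39A2 and SLC39A12) have the widest intervals.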
